A study of Rattus norvegicus with 12 samples.

Results

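The collagens, laminins and integrins were followed here together with the nidogens and agrin, as the genes that build the basement membrane and the pericellular matrix and the receptors that bind them. Members were chosen by symbol, as all genes named as a collagen chain, a laminin chain or an integrin α or β subunit, plus Nid1, Nid2, Hspg2 and Agrn. Reported here are 81 of them among the 17268 genes of the table, namely 42 collagen chains, 10 laminin chains, 18 integrin α subunits, 8 integrin β subunits and 3 linker genes (Nid1, Nid2 and Agrn), and Hspg2 was not analysed here. The rule went by symbol alone, but it was set with earlier results of these data known.

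Cerebral cortex of adult male Sprague Dawley rats was sequenced, with 12 rats in 4 groups, 3 rats per group and each rat giving 1 library. Sham rats had the carotid artery dissected but received no clot. In Model rats a clot of donor blood was infused at the origin of the middle cerebral artery to cause an embolic stroke, and rt-PA rats had this stroke followed at 6 h by recombinant tissue-type plasminogen activator (rt-PA), the enzyme used to dissolve clots. The rt-PA+Acu rats had the stroke, acupuncture at 2 h at the Shuigou and Neiguan points and then rt-PA at 6 h. The age of the rats in weeks and the hour at which the cortex was taken for sequencing were not given in the sources used here.

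A basement membrane is a thin sheet in which a network of type IV collagen and a network of laminin trimers (1 α, 1 β and 1 γ chain) are joined by nidogens and heparan sulphate proteoglycans such as agrin. In the brain it surrounds every vessel, where endothelial cells and pericytes lie on it from the inside and astrocyte endfeet from the outside. Integrins are αβ pairs in the cell membrane. Those with β1 mostly bind collagen, laminin or fibronectin, those with αv, β3, β5 or β8 bind ligands with an RGD motif, and those with β2 are carried by leukocytes and microglia and bind ICAMs and complement.

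Total counts per library ranged from 11678450 to 13616935, so that 3 counts stood for 0.208 to 0.262 CPM (a count relative to the TMM-normalized size of its library, on the usual scale of this unit). The members took 0.242 to 0.263% of the counts in Sham, 0.243 to 0.303% in Model, 0.315 to 0.43% in rt-PA and 0.203 to 0.23% in rt-PA+Acu libraries. The rt-PA range lay above and the rt-PA+Acu range below those of the other 3 groups. Laminin chains made up 11.3 to 11.7% of the members' counts in Sham and 14 to 15.1% in Model libraries, without overlap. In bulk tissue, fewer cells of a type and less RNA per cell cannot be told apart. The cortical label was checked against excitatory neuron markers, whose summed level was 4420 to 4790 CPM in Sham and 1360 to 1610 CPM in Model. Markers of striatal neurons were also present, at 189, 716 and 549 CPM in the Sham libraries, 66.2 to 152 CPM in Model, 65.7 to 112 in rt-PA and 114 to 212 in rt-PA+Acu. All 6 were called lower in Model and 4 of 6 in rt-PA+Acu against Sham. Oligodendrocyte markers summed to 12000 to 17900 CPM in Sham, 1670 to 8500 in Model, 2690 to 11400 in rt-PA and 3220 to 21100 in rt-PA+Acu, and 5 of 6 were called lower in Model. Choroid plexus markers summed to 2.02 to 3.83 CPM in Sham, 11.2 to 48.6 in Model, 10.8 to 69.5 in rt-PA and 3.49 to 15.4 in rt-PA+Acu, where 2 of the 7 were tested in Model vs Sham and both were higher, while 2 were at 0 in each group (Otx2 in all). The part of these 3 marker lists in the members' results was not tested, and whether the dissected pieces were alike was not tested either.

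The test was the quasi-likelihood test of edgeR, with p-values adjusted by Benjamini-Hochberg across the genes tested in a comparison. A gene was called when the adjusted p was under 0.05 and the change over 2-fold. Of the members, 69 passed the filter on low counts in all 4 comparisons, 8 passed in some, and 4 (Col10a1, Col22a1, Itgad and Itgb6) passed in none. A gene could pass the filter through the higher group alone. In Model vs Sham, 13 of 76 tested members were higher and 16 lower, a share of 38.2% called, where 21.5% of all 12884 genes tested were called (9.43% higher and 12% lower). In rt-PA vs Model, 0 of 73 members were called and 0% of all genes. From rt-PA to rt-PA+Acu, 6 of 74 members rose and 25 fell, where 15.3% of all genes were called (7.17% higher and 8.16% lower). In rt-PA+Acu vs Sham, 4 of 73 were higher and 3 lower, where 2.06% of all genes were called (0.916% higher and 1.14% lower). At any fold change, 11 members were higher in rt-PA+Acu vs rt-PA, where 17% of all genes were higher, and 5 lower in rt-PA+Acu vs Sham, where 3.4% were lower. The median log2 fold change of the members in these comparisons was -0.10, 0.395, -0.42 and -0.11, against 0.01, 0.004, -0.003 and 0.02 for all genes tested. Called members numbered 42 in at least 1 comparison, and 39 were called in none.

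**Figure D1:**
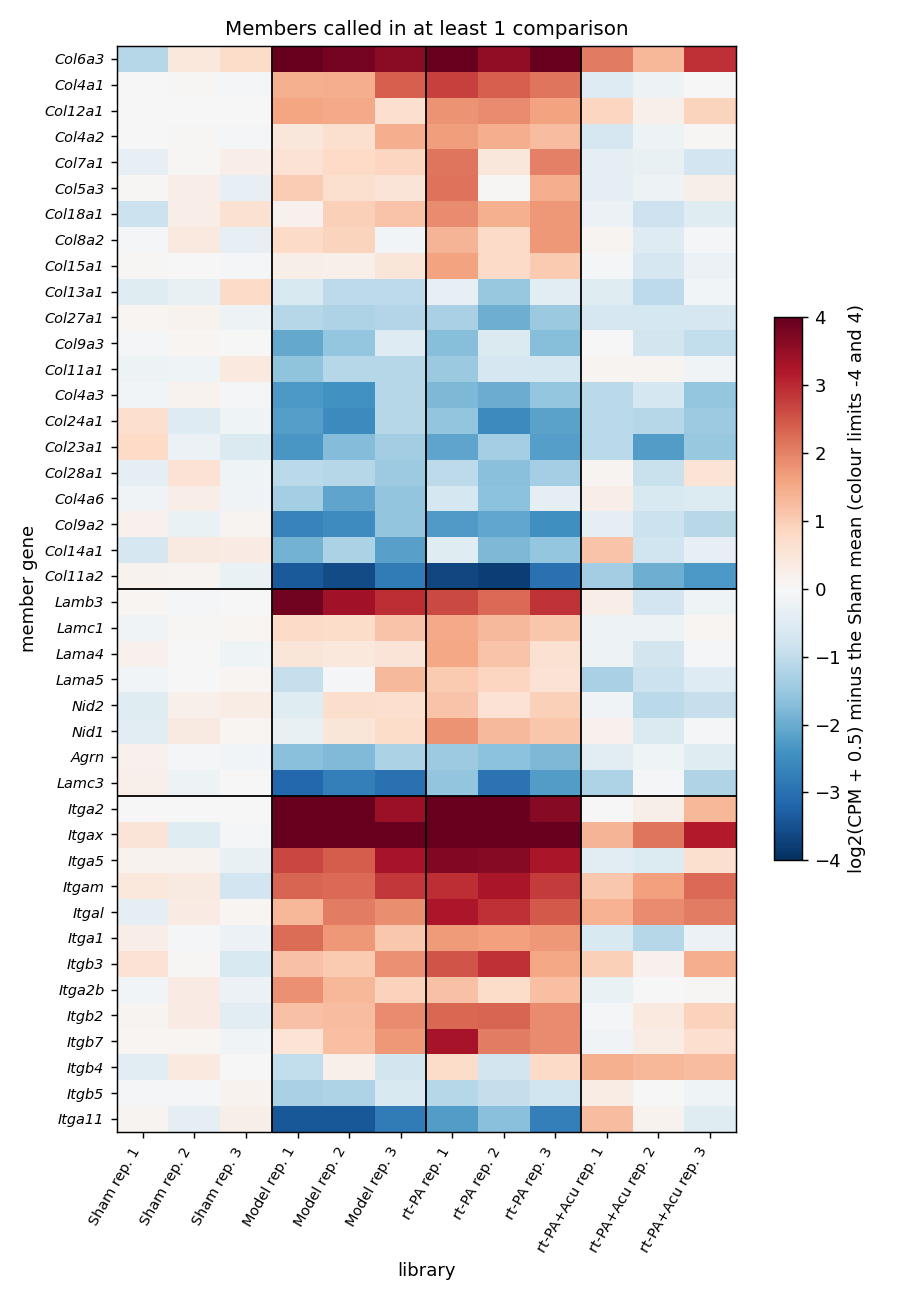
Rows are the 42 members called in at least 1 comparison (collagens, then laminins and linkers, then integrins, separated by black lines, each block ordered by its change in Model) and columns are the 12 libraries. Colour gives log2(CPM + 0.5) minus the Sham mean, limited to -4 and 4. The genes at the top of each block are red in Model and rt-PA and paler in rt-PA+Acu, and most of those at the bottom are blue in Model and rt-PA.

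The α1 and α2 chains of type IV collagen, which together form the collagen network of vascular basement membranes, were high in stroke cortex and near the Sham level in rt-PA+Acu. Col4a1 stood at 76.1, 78.2 and 72.8 CPM in Sham, 202, 208 and 395 in Model, 501, 402 and 333 in rt-PA and 52.5, 65.5 and 76.3 in rt-PA+Acu. Every Model and rt-PA library lay above every Sham and rt-PA+Acu library, and Model replicate 3 was highest in its group. Groups that do not overlap were common in these comparisons, at 63.7% of all genes tested in Model vs Sham and 51.1% from rt-PA to rt-PA+Acu. Col4a1 rose in Model by a log2 fold change of 1.84 ± 0.25 (SE), which is 3.57-fold, with an edgeR adjusted p of 0.000453. It fell in rt-PA+Acu against rt-PA by 2.67 on the log2 scale (SE 0.20, edgeR adjusted p = 0.00104), to 6.35-fold less. Against Sham, rt-PA+Acu was not called (edgeR adjusted p = 0.379).

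Col4a2 moved less than Col4a1. Its levels were 97.2, 99.1 and 91 CPM in Sham, 130, 148 and 263 in Model, 309, 265 and 228 in rt-PA and 59.7, 83.7 and 99.3 in rt-PA+Acu. In Model the log2 fold change was 0.92 ± 0.24 (SE, edgeR adjusted p = 0.0111), just inside the 2-fold limit, and without Model replicate 1 or Model replicate 2 it passed, at 1.11 and 1.05. In rt-PA+Acu it fell against rt-PA by 1.72 on the log2 scale (SE 0.21, edgeR adjusted p = 0.00187). The count ratio of Col4a1 to Col4a2 within a library was 0.784 to 0.8 in Sham, 1.41 to 1.56 in Model, 1.46 to 1.62 in rt-PA and 0.769 to 0.88 in rt-PA+Acu. This ratio was chosen after the values were seen and is given as a description. The Model and rt-PA libraries lay well apart from the Sham and rt-PA+Acu libraries in it, and Model replicate 3, the highest for both genes, had a ratio of 1.5 like the other Model libraries.

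Both genes are read outward from a shared promoter. The stretch between their starts is shown because 2 transcripts whose levels moved by different amounts start at its ends. It lies on rat assembly GRCr8 at chr16:84885521-84885596, is 76 bases long and comes from RefSeq, on the plus strand, with the single GC box (GGGCGG on either strand) in capitals.
Col4a2-Col4a1 gap: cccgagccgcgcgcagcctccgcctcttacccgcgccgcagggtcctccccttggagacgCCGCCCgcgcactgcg

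Other chains of type IV collagen went the other way. Col4a3 and Col4a6, chains of the type IV networks of other basement membranes, had log2 fold changes in Model of -1.96 (SE 0.36) and -2.16 (SE 0.40), with edgeR adjusted p of 0.0022 and 0.00236. Col4a3 went from 13.7, 16.4 and 14.4 CPM in Sham to 2.59, 2.37 and 6.44 in Model, and stood at 3.88, 3.37 and 4.79 in rt-PA and 6.82, 8.98 and 4.79 in rt-PA+Acu. Every library of the other 3 groups was below every Sham library. Without Model replicate 3 its fall in Model was larger, at -2.56. Col8a2, a short-chain collagen of vessel walls and the cornea, fell in rt-PA+Acu against rt-PA by 1.79 (SE 0.40, edgeR adjusted p = 0.0134), a call that was lost without rt-PA replicate 3 (-1.51) or rt-PA+Acu replicate 2 (-1.58).

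Endothelial marker transcripts followed Col4a1 and Col4a2 only in part. The summed level of 8 endothelial markers was 216 to 252 CPM in Sham, 236, 274 and 449 in Model, 311 to 440 in rt-PA and 125 to 130 in rt-PA+Acu. The highest Model value was again that of replicate 3, and rt-PA+Acu lay below Sham. The Sham and Model ranges of this sum overlapped, whereas those of Col4a1 and Col4a2 did not. From rt-PA to rt-PA+Acu, 4 of 8 endothelial markers were lower and 0 higher, and in Model vs Sham 1 was higher and 2 were lower. The 9 pericyte and smooth muscle markers summed to 307 to 342 CPM in Sham, 166 to 215 in Model, 226 to 278 in rt-PA and 168 to 182 in rt-PA+Acu. No marker of either list was at 0 in any group, and their part in the type IV collagen, laminin and nidogen results was not tested.

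**Figure D2:**
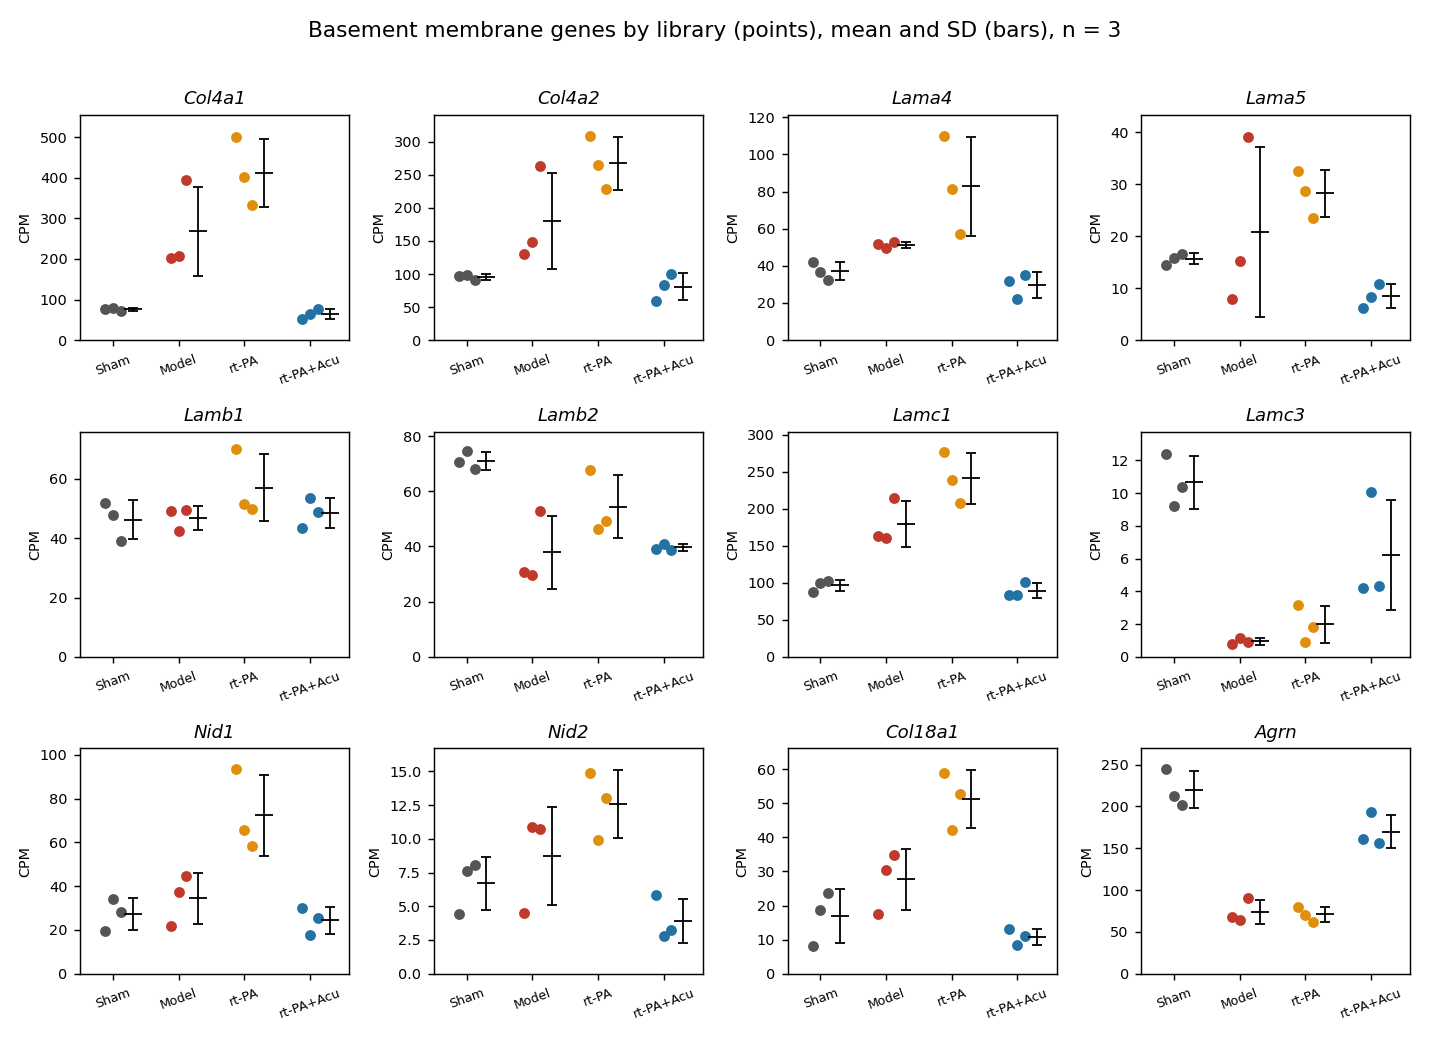
Each panel is a gene, with CPM on a linear axis from 0 and the 4 groups along the bottom. Points are the 3 libraries of a group and the black bar beside them the mean with the SD. Col4a1, Col4a2 and Lamc1 are high in Model and rt-PA, Agrn and Lamc3 are low there, and Lamb1 lies between 39 and 70.1 CPM in all libraries.

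Among the laminins, the β3 chain, which is best known from the epithelial basement membrane of skin, rose in Model. Lamb3 had 1.94, 1.68 and 1.83 CPM in Sham, 33.1, 23.3 and 17.6 in Model, 13.9, 10.7 and 16.6 in rt-PA and 2.27, 0.872 and 1.57 in rt-PA+Acu. It rose 13.6-fold in Model (log2 fold change 3.77 ± 0.28 SE, edgeR adjusted p = 3.42e-05) and fell by 3.12 on the log2 scale in rt-PA+Acu against rt-PA (SE 0.35, edgeR adjusted p = 0.00159). The rt-PA libraries all lay below the Model libraries, with an edgeR adjusted p of 0.38 for that difference. Lama3, an α chain of the same epithelial laminin, stood at 1.76 to 4.2 CPM in Sham and 0.991 to 2.82 CPM in Model, and was not called in any comparison. Count ratios within a library to the vascular β chain Lamb1, which was not called in any comparison, restate the change in Lamb3 as a description. The ratio of Lamb3 to Lamb1 was 0.0351 to 0.0471 in Sham and 0.356 to 0.673 in Model.

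**Figure D3:**
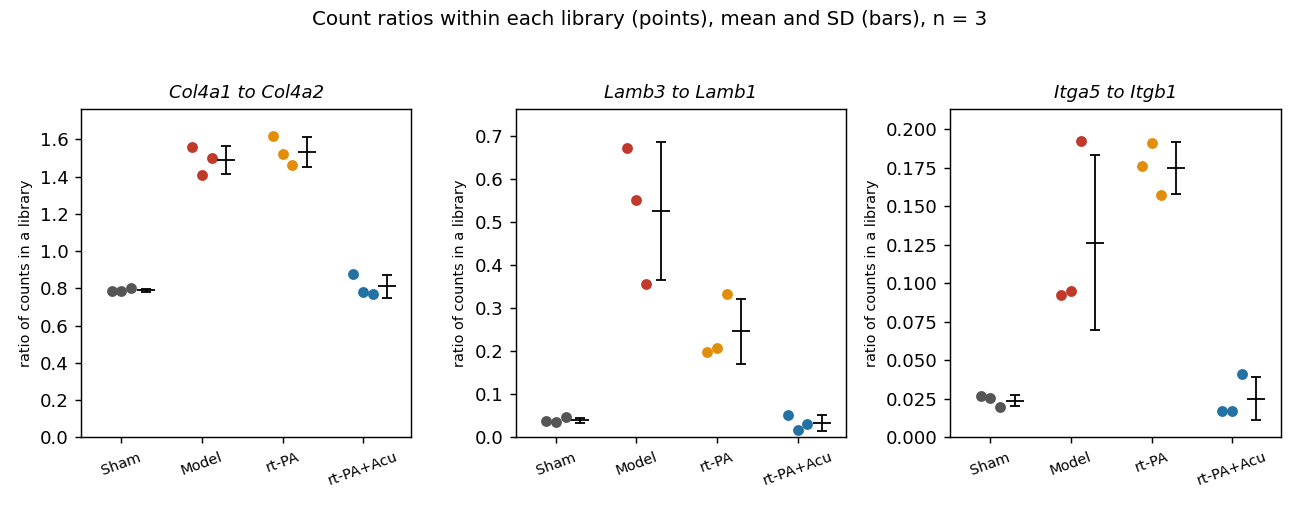
Each panel is the ratio of the counts of 2 members within a library (a pair of type IV collagen chains, a pair of laminin β chains, and integrin α5 to β1), on a linear axis from 0, for the 4 groups. Points are libraries and bars the mean with the SD of 3 libraries. All 6 Model and rt-PA libraries lie above all 6 Sham and rt-PA+Acu libraries in each of the 3 ratios, as in Col4a1 to Col4a2 with 1.41 to 1.62 against 0.769 to 0.88. The 3 ratios were picked from several with results of these data known, and the split is a description. Not all ratios split so, as in Itgam to Itgb2 with 1.46 to 1.77 in rt-PA and 2.07 to 2.38 in rt-PA+Acu.

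The laminin chains of the vessel wall changed by smaller amounts. Lamc1, the γ chain shared by most laminins, stood at 88.2, 99.4 and 102 CPM in Sham, 163, 160 and 215 in Model, 277, 239 and 208 in rt-PA and 83.8, 83.1 and 101 in rt-PA+Acu. Model and rt-PA lay above the other 2 groups in every library. In Model the log2 fold change was 0.90 ± 0.13 (SE, edgeR adjusted p = 0.00063), under the 2-fold limit, and in rt-PA+Acu Lamc1 fell against rt-PA by 1.43 (SE 0.15, edgeR adjusted p = 0.00125).

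Lama4, the α chain that endothelial cells lay down along the whole vascular tree, had 42.1, 36.9 and 32.6 CPM in Sham, 51.7, 49.7 and 52.8 in Model, 110, 81.3 and 56.9 in rt-PA and 32, 22.1 and 35.1 in rt-PA+Acu. Its change in Model was 0.48 ± 0.11 (SE, edgeR adjusted p = 0.0079) and was not called. It fell in rt-PA+Acu against rt-PA by 1.48 (SE 0.27, edgeR adjusted p = 0.00668). Lama5, the α chain of tighter vascular segments, stood at 14.5, 15.9 and 16.6 CPM in Sham, 8.01, 15.2 and 39.2 in Model, 32.6, 28.7 and 23.5 in rt-PA and 6.14, 8.37 and 10.8 in rt-PA+Acu. Model replicate 3 lay above and Model replicate 1 below all Sham libraries, so the Model group showed no common direction. The fall in rt-PA+Acu against rt-PA was 1.74 (SE 0.24, edgeR adjusted p = 0.00268).

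The β chains of the vessel wall were not called in any comparison. Lamb2, the chain known from mature basement membranes, had 70.7, 74.5 and 67.9 CPM in Sham, 30.7, 29.8 and 53 in Model, 67.6, 46.5 and 49.1 in rt-PA and 39.1, 41 and 38.8 in rt-PA+Acu. Sham lay above every library of the other groups. Its log2 fold change was -0.90 ± 0.21 (SE, edgeR adjusted p = 0.00664) in Model vs Sham and -0.84 (edgeR adjusted p = 0.00377) in rt-PA+Acu vs Sham, both under the 2-fold limit. In rt-PA+Acu vs rt-PA it was -0.46 ± 0.16 (SE, edgeR adjusted p = 0.0566). Lamb1 ranged from 39 to 51.8 CPM in Sham, 42.3 to 49.4 in Model, 49.8 to 70.1 in rt-PA and 43.4 to 53.5 in rt-PA+Acu. Lama2, the muscle and astrocyte chain, ranged from 10.7 to 14.1 CPM in Sham and 10.2 to 13.6 CPM in Model. Lamc3, a γ chain expressed in brain and retina, fell in Model. It went from 12.4, 9.19 and 10.4 CPM in Sham to 0.763, 1.18 and 0.909 in Model, and stood at 3.19, 0.932 and 1.84 in rt-PA and 4.21, 10.1 and 4.34 in rt-PA+Acu. The fall was 3.47 on the log2 scale (SE 0.27, edgeR adjusted p = 4.05e-05). Lamc3 rose in rt-PA+Acu against rt-PA by 1.63 (SE 0.53, edgeR adjusted p = 0.0462), a call that was lost without rt-PA replicate 2 (1.29), rt-PA replicate 3 (1.58), rt-PA+Acu replicate 1 (1.85) or rt-PA+Acu replicate 2 (1.10).

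The linkers went in opposite directions. Agrn, the proteoglycan agrin, which binds laminin and clusters receptors at synapses and astrocyte endfeet, stood at 245, 213 and 202 CPM in Sham, 67.8, 64.2 and 90.6 in Model, 80.3, 70.1 and 62.2 in rt-PA and 161, 193 and 156 in rt-PA+Acu. The 6 Model and rt-PA libraries were below all others, and rt-PA+Acu lay between them and Sham. It fell in Model by 1.56 (SE 0.15, edgeR adjusted p = 8.51e-05) and rose in rt-PA+Acu against rt-PA by 1.26 (SE 0.14, edgeR adjusted p = 0.00145). Astrocyte and excitatory neuron markers moved with it. The astrocyte sum was 3430 to 4110 CPM in Sham, 1620 to 1890 in Model, 1390 to 1930 in rt-PA and 2700 to 3490 in rt-PA+Acu, and the part of either list in the Agrn result was not tested.

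Nid1 and Nid2, which bridge laminin and type IV collagen, were called with edgeR only between rt-PA+Acu and rt-PA. Nid1 had 19.6, 34.2 and 28 CPM in Sham, 21.7, 37.1 and 44.5 in Model, 93.3, 65.5 and 58.3 in rt-PA and 30.1, 17.6 and 25.4 in rt-PA+Acu. Every rt-PA library stood above all others, and the other 3 groups overlapped. Nid1 fell in rt-PA+Acu against rt-PA by 1.57 (SE 0.24, edgeR adjusted p = 0.00416) and Nid2 by 1.68 (SE 0.32, edgeR adjusted p = 0.00766). Nid2 ranged from 4.45 to 8.04 CPM in Sham, 4.5 to 10.9 in Model, 9.9 to 14.9 in rt-PA and 2.79 to 5.81 in rt-PA+Acu.

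Collagens at the outer face of basement membranes fell in rt-PA+Acu without having been called in Model. Col18a1, whose C-terminal fragment is endostatin, stood at 8.24, 18.8 and 23.7 CPM in Sham, 17.6, 30.5 and 34.9 in Model, 59, 42.1 and 52.7 in rt-PA and 13.2, 8.45 and 11 in rt-PA+Acu. It was highest in every rt-PA library, and Sham and Model overlapped. The fall against rt-PA was 2.23 (SE 0.21, edgeR adjusted p = 0.00113). Col15a1, the related multiplexin, fell by 1.54 (SE 0.28, edgeR adjusted p = 0.00705), and Col7a1, the anchoring fibril collagen, by 2.25 (SE 0.43, edgeR adjusted p = 0.00773). Col7a1 in rt-PA was 52.7, 16.1 and 48.1 CPM against 17.7 to 21.4 CPM in Model.

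Among the collagen VI chains, Col6a3 alone was called. It encodes the α3 chain of collagen VI, which lies at the border of basement membrane and interstitial matrix. Its levels were 1.45, 5.2 and 6.64 CPM in Sham, 80.1, 60 and 51.4 in Model, 108, 50.2 and 84.6 in rt-PA and 17.5, 10.4 and 32.2 in rt-PA+Acu. The rise in Model was 3.86 ± 0.41 (SE), 14.6-fold (edgeR adjusted p = 0.000161), and the fall in rt-PA+Acu against rt-PA was 2.01 (SE 0.43, edgeR adjusted p = 0.0114). The partner chains of the same trimer did not share the rise in Model. Col6a1 ranged from 35.3 to 87.9 CPM in Sham and 46 to 112 in Model, and Col6a2 from 10.9 to 21.4 CPM in Sham and 11 to 19.8 in Model. In rt-PA+Acu against rt-PA, Col6a2 had a log2 fold change of -0.96 ± 0.20 (SE, edgeR adjusted p = 0.0102), under the 2-fold limit. Col6a1 had 0.04 ± 0.36 there (SE, edgeR adjusted p = 0.936). Col28a1, a related short collagen, fell in Model by 2.08 (SE 0.53, edgeR adjusted p = 0.0111) at levels of 1.05 to 2.53 CPM in Sham, and the call was lost without Sham replicate 2 (-1.62).

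Of 11 fibrillar collagens tested, 0 rose and 4 fell in Model, where 9.43% of all genes tested were higher and 12% lower. Col11a2, a chain of the type XI collagen that sets fibril width, was the one with the largest fall. It stood at 372, 363 and 278 CPM in Sham, 32, 27.4 and 47.5 in Model, 26.3, 24.4 and 41.5 in rt-PA and 127, 86 and 67.1 in rt-PA+Acu. All stroke libraries lay below all Sham libraries, with rt-PA+Acu between. Col11a2 fell in Model by 3.24 (SE 0.21), 9.42-fold (edgeR adjusted p = 2.25e-05), rose in rt-PA+Acu against rt-PA by 1.60 (SE 0.29, edgeR adjusted p = 0.0064) and was still lower than in Sham by 1.86 (SE 0.23, edgeR adjusted p = 0.00611). Its 250 bases before the start in RefSeq (GRCr8, chr20:4817649-4817898, minus strand) are shown, with GC boxes in capitals, as the promoter of the collagen that fell furthest among the fibrillar members. An overlapping pair and a further box lie in it.
Col11a2: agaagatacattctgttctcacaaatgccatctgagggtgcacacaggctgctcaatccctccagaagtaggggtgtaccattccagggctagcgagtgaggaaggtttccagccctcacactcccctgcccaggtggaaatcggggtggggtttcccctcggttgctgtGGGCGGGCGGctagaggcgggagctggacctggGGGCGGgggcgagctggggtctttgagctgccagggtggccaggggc

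The other fibrillar members that fell in Model were Col24a1 (log2 fold change -1.97 ± 0.43 SE, edgeR adjusted p = 0.00504), Col11a1 (-1.34 ± 0.22, edgeR adjusted p = 0.00125) and Col27a1 (-1.19 ± 0.11, edgeR adjusted p = 8.81e-05). Col24a1 is a marker of cortical neurons and went from 48.9, 21.5 and 27.3 CPM in Sham to 6.26, 4.82 and 13.7 in Model. In rt-PA+Acu against rt-PA all 3 were under the 2-fold limit. Col5a3, a minor fibrillar chain, fell in rt-PA+Acu against rt-PA by 1.56 (SE 0.47, edgeR adjusted p = 0.0383), although the groups overlapped, with 230, 51.6 and 138 CPM in rt-PA and 39.1, 43.1 and 59.8 in rt-PA+Acu. That call was lost without rt-PA replicate 1 (-1.001), rt-PA replicate 3 (-1.57), rt-PA+Acu replicate 1 (-1.44) or rt-PA+Acu replicate 2 (-1.49).

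Of 8 fibril-associated collagens tested, 3 fell and 1 rose in Model, and of 4 transmembrane collagens 2 fell and 0 rose, where 12% of all genes tested were lower and 9.43% higher. Col12a1, which coats type I fibrils, rose from 15.7, 16.2 and 15.8 CPM in Sham to 48.1, 46.8 and 25.5 in Model (log2 fold change 1.35 ± 0.23 SE, edgeR adjusted p = 0.00162), and fell in rt-PA+Acu against rt-PA by 1.10 (SE 0.20, edgeR adjusted p = 0.00646), which was under the 2-fold limit without rt-PA+Acu replicate 2 (-0.90). Col9a2 and Col9a3, chains of the cartilage type IX collagen, fell by 2.35 (SE 0.33, edgeR adjusted p = 0.00062) and 1.28 (SE 0.35, edgeR adjusted p = 0.0148), and Col9a2 rose in rt-PA+Acu against rt-PA by 1.68 (SE 0.28, edgeR adjusted p = 0.0055). The Col9a3 call was lost without Model replicate 1 (-0.98) or Model replicate 2 (-1.14). Col14a1 fell by 2.67 (SE 0.60, edgeR adjusted p = 0.00589), and by 3.42 without Model replicate 2, at 1.37 to 3.37 CPM in Sham. Col23a1 and Col13a1, transmembrane collagens of neurons and other cells, fell by 2.04 (SE 0.43, edgeR adjusted p = 0.0043) and 1.08 (SE 0.38, edgeR adjusted p = 0.0407). The Col13a1 call was lost without Sham replicate 3 (-0.57), Model replicate 2 (-0.99) or Model replicate 3 (-0.99).

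Of the 4 integrin α subunits that bind collagen with β1, 2 rose and 1 fell in Model, where 9.43% of all genes tested were higher and 12% lower. Itga2, the α2 subunit of platelets and epithelia, had 0 counts in all 3 Sham libraries, 276, 169 and 60 counts in Model, 141, 106 and 78 in rt-PA and 0, 1 and 10 in rt-PA+Acu. Against a floor of 3 counts over the Sham group it was at least 168-fold higher in Model (edgeR adjusted p = 0.000666). Itga2 fell in rt-PA+Acu against rt-PA by 4.67 on the log2 scale (SE 0.75, edgeR adjusted p = 0.00468), and its log2 fold change was -7.195 without rt-PA+Acu replicate 3, the library with 10 counts. The 7 platelet markers in the table summed to 1.54 to 3.52 CPM in Sham, 2.45 to 4.3 in Model, 3.16 to 5.82 in rt-PA and 2.18 to 2.61 in rt-PA+Acu, with Ppbp at 0 in all groups. Only 1 platelet marker passed the filter. It was not called in Model and was called lower in rt-PA+Acu against rt-PA (log2 fold change -1.77, edgeR adjusted p = 0.0278). The part of platelets in the integrin results was not tested. The RefSeq promoter of Itga2 (GRCr8, chr2:48354510-48354759, minus strand, 250 bases before the start) is shown as that of the member whose Sham libraries held no counts, with 3 GC boxes in capitals.
Itga2: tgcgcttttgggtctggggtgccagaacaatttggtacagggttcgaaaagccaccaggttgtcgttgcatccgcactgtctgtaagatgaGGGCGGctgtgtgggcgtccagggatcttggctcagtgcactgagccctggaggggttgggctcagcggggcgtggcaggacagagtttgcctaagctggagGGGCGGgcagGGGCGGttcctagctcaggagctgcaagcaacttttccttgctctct

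Itga1, the α1 subunit of vascular and mesenchymal cells, stood at 14.1, 11.3 and 9.87 CPM in Sham, 56.4, 39.7 and 25.2 in Model, 39, 37.7 and 40.2 in rt-PA and 7.41, 5.05 and 9.8 in rt-PA+Acu. Both stroke groups without acupuncture lay above the other 2. It rose in Model by 1.79 ± 0.29 (SE, edgeR adjusted p = 0.00115) and fell in rt-PA+Acu against rt-PA by 2.39 (SE 0.23, edgeR adjusted p = 0.00118). These values are uncertain, because Pelo lies within Itga1 in the RefSeq annotation, the use of strand in counting was not stated, and Pelo counts moved the same way, at 147 to 174 in Sham, 422 to 539 in Model, 434 to 483 in rt-PA and 148 to 231 in rt-PA+Acu. Itga11, the collagen I receptor of mesenchymal cells, had 64, 47 and 65 counts in Sham and 0, 0 and 3 in Model, a ratio of 0.017 (95% counting interval 0.00347 to 0.0504; edgeR adjusted p = 0.000347), and without Model replicate 3 no count was left in Model. It had 9, 16 and 4 counts in rt-PA and 139, 60 and 43 in rt-PA+Acu, and rose between these by 3.26 (SE 0.63, edgeR adjusted p = 0.00838), or by 2.60 without rt-PA+Acu replicate 1. Intervals and floors from counts cover counting error only.

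The laminin-binding α subunits were not called in any comparison. Itga6, the main endothelial laminin receptor, ranged from 108 to 141 CPM in Sham, 80.5 to 104 in Model, 85.1 to 116 in rt-PA and 89.7 to 109 in rt-PA+Acu. Itga3 ranged from 29.3 to 33.9 CPM in Sham and 26.8 to 37.7 in Model, 40.8 to 44.9 in rt-PA and 34.7 to 40.8 in rt-PA+Acu. Itgb1, the β partner of all collagen and most laminin receptors, had 144, 151 and 137 CPM in Sham, 267, 214 and 200 in Model, 285, 254 and 239 in rt-PA and 141, 127 and 138 in rt-PA+Acu. Model and rt-PA stood above the others in every library. Both changes of Itgb1 were under the 2-fold limit, at 0.66 ± 0.12 (SE, edgeR adjusted p = 0.0021) in Model and -0.94 ± 0.11 (SE, edgeR adjusted p = 0.00181) in rt-PA+Acu against rt-PA.

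Of the α subunits that bind fibronectin and other RGD or LDV ligands, Itga5 and Itga2b rose and 4 were not called in Model. Of all genes tested there, 9.43% were higher. Itga5, the fibronectin receptor of sprouting vessels and activated microglia, stood at 3.88, 3.83 and 2.71 CPM in Sham, 24.6, 20.4 and 38.2 in Model, 50.3, 48.4 and 37.6 in rt-PA and 2.44, 2.18 and 5.69 in rt-PA+Acu. All 6 stroke libraries without acupuncture were above all others. Itga5 rose 8-fold in Model (log2 fold change 3.00 ± 0.28 SE, edgeR adjusted p = 8.63e-05) and fell 13-fold in rt-PA+Acu against rt-PA (log2 fold change -3.70 ± 0.36 SE, edgeR adjusted p = 0.00118). Relative to Itgb1 its counts were 0.0197 to 0.0269 in Sham, 0.0921 to 0.192 in Model, 0.157 to 0.191 in rt-PA and 0.0172 to 0.0413 in rt-PA+Acu. Itgav, the αv subunit, ranged from 203 to 233 CPM in Sham, 208 to 275 in Model, 155 to 200 in rt-PA and 194 to 273 in rt-PA+Acu and was not called.

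Itga2b and Itgb3, which together form the platelet fibrinogen receptor, rose in Model by 1.63 (SE 0.36, edgeR adjusted p = 0.00539) and 1.72 (SE 0.51, edgeR adjusted p = 0.0208). Itga2b had 1.54, 2.3 and 1.4 CPM in Sham and 7.33, 5.07 and 3.72 in Model, and Itgb3 1.45, 0.842 and 0.349 in Sham and 2.44, 2.2 and 4.13 in Model. In rt-PA+Acu against rt-PA they fell by 1.32 (SE 0.30, edgeR adjusted p = 0.015) and 1.68 (SE 0.51, edgeR adjusted p = 0.0368). Some of these calls were lost without a single library. The call of Itgb3 in Model was lost without Sham replicate 2 (1.67), Sham replicate 3 (1.35) or Model replicate 3 (1.39), and against rt-PA without rt-PA replicate 1 (-1.64), rt-PA replicate 2 (-1.34), rt-PA+Acu replicate 1 (-1.68) or rt-PA+Acu replicate 2 (-1.35). Itga2b against rt-PA was lost without rt-PA replicate 1 (-1.24), rt-PA replicate 3 (-1.23) or rt-PA+Acu replicate 1 (-1.20).

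The αv partners carried by glia, Itgb5 and Itgb8, both fell in Model, and Itgb5 alone passed the 2-fold limit. Itgb5 stood at 43.5, 43.7 and 50.7 CPM in Sham, 18.5, 19.4 and 30 in Model, 20.7, 23.7 and 25.9 in rt-PA and 56.4, 46.4 and 40.7 in rt-PA+Acu. The 6 Model and rt-PA libraries lay below all others. It fell in Model by 1.01 (SE 0.19, edgeR adjusted p = 0.00227) and rose in rt-PA+Acu against rt-PA by 1.03 (SE 0.16, edgeR adjusted p = 0.00401), both at the 2-fold limit. Without Sham replicate 3, Model replicate 1 or Model replicate 2 the fall was 0.94, 0.89 or 0.91, and without rt-PA replicate 1 or rt-PA+Acu replicate 1 the rise was 0.94 or 0.90. Itgb8, the astrocyte subunit that activates TGF-β with αv, had 100 to 111 CPM in Sham, 50.3 to 58.9 in Model, 47.5 to 79.6 in rt-PA and 67.5 to 111 in rt-PA+Acu, and was not called. Its fall from Sham to Model was 0.92 (SE 0.10, edgeR adjusted p = 0.000151), just inside the 2-fold limit. Every Model library of Itgb8 lay below every Sham library.

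Of 4 leukocyte integrin α subunits tested, Itgam, Itgax and Itgal rose in Model and were also called higher in rt-PA+Acu than in Sham. Of all genes tested, 9.43% were higher in Model and 0.916% in rt-PA+Acu against Sham. Itgam, the αM subunit of microglia, monocytes and neutrophils (CD11b), stood at 17.1, 16.2 and 7.25 CPM in Sham, 65.2, 62.1 and 93.9 in Model, 102, 126 and 90 in rt-PA and 27.5, 40.7 and 62.9 in rt-PA+Acu. No group overlapped with Sham. It rose in Model by 2.45 (SE 0.30, edgeR adjusted p = 0.000311) and fell in rt-PA+Acu against rt-PA by 1.28 (SE 0.29, edgeR adjusted p = 0.0137), a call lost without rt-PA+Acu replicate 2 (-1.22).

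Itgax, the αX subunit of dendritic cells and reactive microglia (CD11c), had the largest fitted change among members with counts in Sham. Its counts were 6, 0 and 2 in Sham, 281, 228 and 373 in Model, 431, 458 and 422 in rt-PA and 15, 29 and 77 in rt-PA+Acu. The rise in Model was 6.72 ± 0.52 (SE) on the log2 scale, 106-fold (edgeR adjusted p = 3.79e-05), and without Sham replicate 1 or Sham replicate 2 it was 8.02 or 6.11. It fell in rt-PA+Acu against rt-PA by 3.27 (SE 0.45, edgeR adjusted p = 0.00273), and by 4.04 without rt-PA+Acu replicate 3. Its RefSeq promoter (GRCr8, chr1:192149799-192150048, plus strand, 250 bases before the start) is shown because, of the members that rose in Model and had a promoter in the table, it alone held an AP-1 motif (TGANTCA), here in capitals.
Itgax: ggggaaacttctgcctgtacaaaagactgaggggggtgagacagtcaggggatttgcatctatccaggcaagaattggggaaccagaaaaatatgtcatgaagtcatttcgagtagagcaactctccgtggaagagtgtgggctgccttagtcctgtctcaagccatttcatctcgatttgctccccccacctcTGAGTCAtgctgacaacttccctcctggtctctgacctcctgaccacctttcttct

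Itgal, the αL subunit of lymphocytes and other blood leukocytes, had 0.889, 1.76 and 1.4 CPM in Sham, 4.04, 7.02 and 6.03 in Model, 16.7, 13.2 and 9.35 in rt-PA and 4.29, 6.27 and 6.96 in rt-PA+Acu. Every rt-PA library was above every other library. It rose in Model by 2.08 (SE 0.36, edgeR adjusted p = 0.00163) and fell in rt-PA+Acu against rt-PA by 1.16 (SE 0.28, edgeR adjusted p = 0.0174), a call lost without rt-PA replicate 1 (-0.95), rt-PA+Acu replicate 1 (-0.98) or rt-PA+Acu replicate 2 (-1.21). Itgb2, the β subunit that all of these α subunits need, went from 14.9, 17.5 and 9.87 CPM in Sham to 31.7, 33 and 51.8 in Model, 69.7, 71.3 and 52.1 in rt-PA and 13.3, 18.2 and 26.4 in rt-PA+Acu. It rose in Model by 1.47 (SE 0.25, edgeR adjusted p = 0.00166) and fell in rt-PA+Acu against rt-PA by 1.73 (SE 0.26, edgeR adjusted p = 0.00358). The count ratio of Itgax to Itgam was 0 to 0.0283 in Sham, 0.31 to 0.329 in Model, 0.26 to 0.345 in rt-PA and 0.0459 to 0.0916 in rt-PA+Acu.

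Itgb7, the β subunit of gut-homing lymphocytes, had 1, 1 and 0 counts in Sham, 4, 9 and 16 in Model, 71, 25 and 21 in rt-PA and 0, 2 and 5 in rt-PA+Acu, and fell between the last 2 groups by 3.80 (SE 0.84, edgeR adjusted p = 0.0126). It was not tested in Model vs Sham. The call was lost without rt-PA+Acu replicate 2 (-3.75), and the fall was 3.09 without rt-PA replicate 1 and 4.85 without rt-PA+Acu replicate 3. Itgb7 overlaps Znf740 in the annotation, whose counts of 699 to 1393 in all libraries exceed those of Itgb7. Its partner Itga4 ranged from 2.71 to 5.33 CPM in Sham, 2.2 to 2.73 in Model, 3.54 to 5.75 in rt-PA and 2.19 to 2.84 in rt-PA+Acu and was not called.

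Markers of blood leukocytes moved with these integrins in part. The 7 neutrophil markers summed to 8.27 to 12.7 CPM in Sham, 7.4 to 20.4 in Model, 91.2, 39.2 and 16.9 in rt-PA and 6.45 to 7.11 in rt-PA+Acu, and the 7 monocyte and macrophage markers to 130 to 169, 84.9 to 145, 216 to 470 and 76 to 123. Both sums overlapped between Sham and Model, were above the Sham range in every rt-PA library and were below it in every rt-PA+Acu library. By gene, 2 of 5 tested neutrophil and 1 of 5 monocyte and macrophage markers were called higher in Model and 0 lower, where 9.43% of all genes were higher. In rt-PA+Acu against rt-PA, 4 of 6 and 4 of 5 were called lower and 0 higher, where 8.16% of all genes were lower. The T and NK cell sum was 0.153 to 0.404 CPM in Sham and at most 5.34 CPM in any library. Homeostatic microglia markers summed to 394 to 460 CPM in Sham, 304 to 343 in Model, 279 to 325 in rt-PA and 299 to 348 in rt-PA+Acu. Of 6 microglia markers tested, 0 were called higher and 4 lower in Model, where 12% of all genes tested were lower. In rt-PA+Acu against rt-PA, 3 of 6 were called higher and 0 lower, where 7.17% of all genes were higher. Ms4a7 was at 0 in Sham and Mmp8 in rt-PA+Acu, and the part of these cells in the integrin results was not tested.

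**Figure D4:**
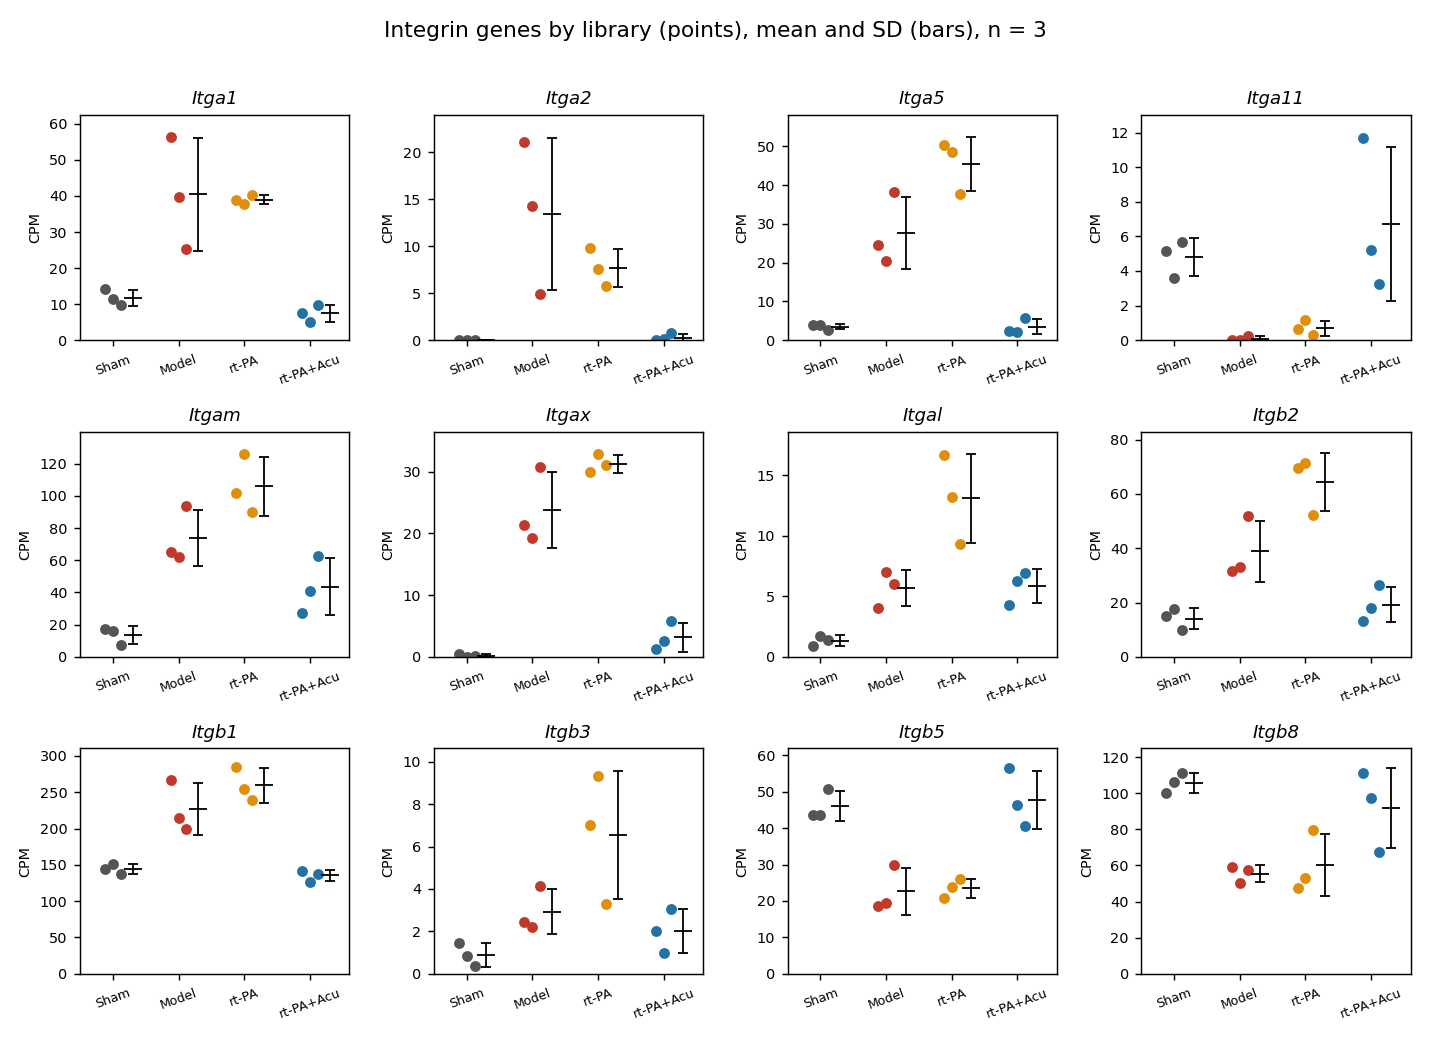
Each panel is an integrin gene, with CPM on a linear axis from 0 and the 4 groups along the bottom. Points are the 3 libraries of a group and the black bar beside them the mean with the SD. Itga1, Itga2, Itga5 and Itgax are low in Sham and rt-PA+Acu and high in Model and rt-PA, and Itga11, Itgb5 and Itgb8 show lower points in Model and rt-PA than in Sham.

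The question of rt-PA vs Model was what delayed thrombolysis alone changed. With edgeR, 0 of 73 members were called, but 9 had an unadjusted p under 0.05 and a change over 2-fold, all higher in rt-PA, where 1.86% of all genes tested met that rule (1.45% higher and 0.417% lower). With DESeq2, 3 members were called (Col1a1, Itgal and Nid1), of 82 genes in all. Groups did not overlap in 15 members that were higher and 3 that were lower in rt-PA, where 16% of all genes tested did not overlap (7.84% higher and 8.2% lower). The 9 members were Col1a1, Col1a2, Col3a1, Col8a1, Lama1, Nid1, Itgal, Itgb3 and Itgb7.

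The interstitial collagens of fibroblasts led them. Col1a1 stood at 7.03, 23.5 and 20 CPM in Sham, 7.86, 13.2 and 6.69 in Model, 59.1, 15.8 and 44.6 in rt-PA and 38.7, 17.7 and 18.9 in rt-PA+Acu. Col3a1 had 7.03, 22.2 and 16.9 CPM in Sham, 6.79, 28.1 and 5.37 in Model, 97.9, 17.3 and 89.9 in rt-PA and 31.7, 13.6 and 19.7 in rt-PA+Acu. In both genes rt-PA replicates 1 and 3 were high while replicate 2 lay within the range of Sham. The log2 fold changes in rt-PA vs Model were 2.11 ± 0.48 for Col1a1, 2.02 ± 0.54 for Col1a2 and 2.36 ± 0.78 for Col3a1 (SE), with edgeR adjusted p of 0.301, 0.348 and 0.393. Without Model replicate 2 those of Col1a2 and Col3a1 were 2.701 and 3.49. The 9 markers of meninges and fibroblasts had the same order of libraries in rt-PA, at 321, 132 and 254 CPM, against 208 to 338 in Sham, 54.6 to 148 in Model and 150 to 256 in rt-PA+Acu, and their part was not tested. The Col1a1 counts overlap Sgca in the annotation.

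Nid1, Lama4, Col4a1 and Col4a2 had their highest group mean in rt-PA, and none of them was called with edgeR against Model, while Nid1 was called with DESeq2. The log2 fold change in rt-PA vs Model was 1.08 ± 0.28 (SE, edgeR adjusted p = 0.334) for Nid1, 0.69 ± 0.22 (SE, edgeR adjusted p = 0.379) for Lama4, 0.62 ± 0.28 (SE, edgeR adjusted p = 0.508) for Col4a1 and 0.57 ± 0.26 (SE, edgeR adjusted p = 0.513) for Col4a2. For Nid1 and Lama4 the rt-PA and Model libraries did not overlap, and for Col4a1 and Col4a2 Model replicate 3 lay within the rt-PA range. Lama1, the laminin chain of the pial surface, had 4.04, 5.75 and 3.14 CPM in Model and 14.3, 5.52 and 12.1 in rt-PA, again with replicate 2 low.

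Whether stroke cortex given acupuncture before rt-PA still differed from Sham was asked in rt-PA+Acu vs Sham. The 4 members that were higher were Itgax (log2 fold change 3.82 ± 0.88 SE, edgeR adjusted p = 0.0483), Itgal (2.11 ± 0.35, edgeR adjusted p = 0.017), Itgam (1.69 ± 0.38, edgeR adjusted p = 0.043) and Itgb4 (1.49 ± 0.30, edgeR adjusted p = 0.0342). Itgb4, the hemidesmosome subunit that with α6 binds epithelial laminin, stood at 1.37, 2.76 and 2.01 CPM in Sham, 0.763, 2.37 and 0.991 in Model, 3.6, 1 and 3.68 in rt-PA and 6.14, 5.75 and 5.39 in rt-PA+Acu. It was thus higher in rt-PA+Acu than in every library of the other groups. The 3 lower members were Col11a2, Col24a1 (-1.34 ± 0.29, edgeR adjusted p = 0.0422) and Col4a3 (-1.12 ± 0.23, edgeR adjusted p = 0.0373). These calls were fragile, and Col11a2 alone was called without each library in turn. Without any 1 of Sham replicates 1, 2 and 3 or rt-PA+Acu replicate 2, 0 members were called higher, without rt-PA+Acu replicate 3, 2 were, and without any 1 Sham library 1 member was called lower. Lamb2 was lower than in Sham by 0.84 (edgeR adjusted p = 0.00377) but was under the 2-fold limit and so not called.

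Model vs Sham and rt-PA+Acu vs rt-PA share no library, so their calls can be set side by side. All 13 members that were higher in Model than in Sham fell from rt-PA to rt-PA+Acu (Col4a1, Col6a3, Col12a1, Lamb3, Itga1, Itga2, Itga2b, Itga5, Itgal, Itgam, Itgax, Itgb2 and Itgb3). Tested in both were 12753 genes, 73 of them members. Over these 12753 genes, 696 were higher and then lower and 507 were higher and then not called. Of the members lower in Model and tested in both, 6 rose from rt-PA to rt-PA+Acu (Agrn, Col9a2, Col11a2, Lamc3, Itga11 and Itgb5) and 9 were not called, against 751 and 758 of all genes. Col28a1, also lower in Model, did not pass the edgeR filter from rt-PA to rt-PA+Acu. DESeq2 called it higher there (log2 fold change 2.38, DESeq2 adjusted p = 0.0163). A further 11 members fell from rt-PA to rt-PA+Acu and were not called in Model (Col4a2, Col5a3, Col7a1, Col8a2, Col15a1, Col18a1, Lama4, Lama5, Lamc1, Nid1 and Nid2), against 312 of all genes, and 0 members and 164 genes were higher there and not called in Model.

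**Figure D5:**
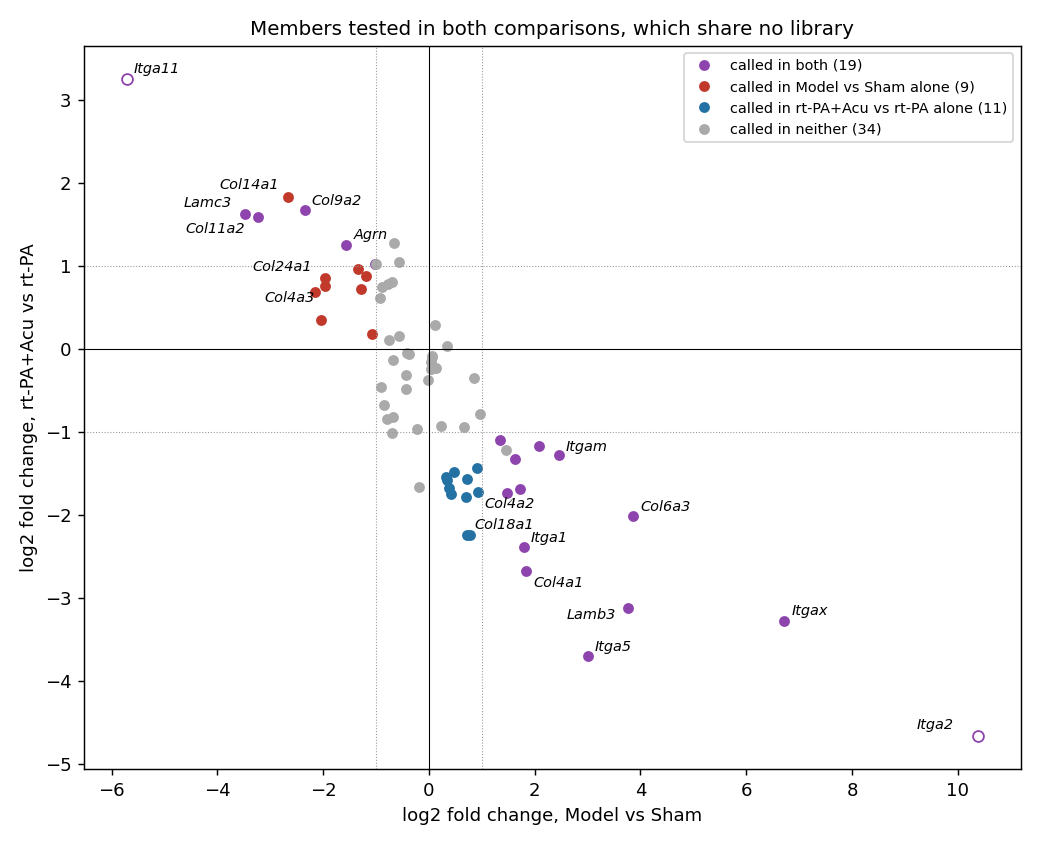
Points are the 73 members tested in both comparisons, with the log2 fold change in Model vs Sham on the horizontal axis, and that in rt-PA+Acu vs rt-PA on the vertical axis. Dotted lines mark 2-fold changes, colours mark which comparison called the gene, and open circles are Itga2 and Itga11, whose fitted fold change in Model rests on 0 counts in Sham and 3 counts in Model. The 19 members called in both lie in the lower right (13) and upper left (6) parts of the plot.

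The genes that act with the members are set here against 21.5% of all genes called in Model vs Sham and 15.3% in the acupuncture comparison. Of 26 tested genes of collagen synthesis and cross-linking, 6 rose and 2 fell in Model (30.8% called), and of 27 tested 0 rose and 7 fell in rt-PA+Acu against rt-PA (25.9%). P4hb, a subunit of prolyl 4-hydroxylase, rose from 117 ± 5.93 CPM (SD, n = 3) in Sham to 432 ± 48.4 in Model (edgeR adjusted p = 1.07e-05) and was 133 ± 20.7 in rt-PA+Acu. P4ha3, a catalytic subunit of the same enzyme, rose by 1.64 (SE 0.21, edgeR adjusted p = 0.000338), and Adamts2, which trims procollagen ends, fell by 3.68 (SE 0.30, edgeR adjusted p = 4.9e-05) in Model. Of 26 adaptors that link integrins to actin, 5 rose and 0 fell in Model, a share of 19.2%, which is below that of all genes, and 0 rose and 7 fell in rt-PA+Acu against rt-PA (26.9%). The named adaptors were Lims1 (1.37 ± 0.09 SE, edgeR adjusted p = 2.15e-05), Flna (1.40 ± 0.11, edgeR adjusted p = 4.76e-05) and Actn1 (1.17 ± 0.11, edgeR adjusted p = 9.96e-05) in Model.

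Of 13 other matrix receptors tested, 2 rose and 0 fell in Model, a share of 15.4%, again below that of all genes. In rt-PA+Acu against rt-PA, 1 of 13 rose and 2 fell (23.1%). Sdc1, a heparan sulphate syndecan, rose in Model from 1.22 ± 0.972 CPM (SD, n = 3) to 223 ± 103, and Cd44, the hyaluronan receptor, from 7.31 ± 1.21 to 245 ± 71.7 (edgeR adjusted p = 3.11e-05 and 6.4e-06). Both fell in rt-PA+Acu against rt-PA, to 8.95 ± 8.81 and 45.5 ± 37.5 CPM, and the SD of both was large in that group. Of 12 other integrin ligands tested, 2 rose and 4 fell in Model (50% called). In rt-PA+Acu against rt-PA, 3 of 13 rose and 7 fell (76.9%). Icam1, the ligand of β2 integrins on vessels, rose from 4.07 ± 0.633 CPM in Sham to 61 ± 7.18 in Model (edgeR adjusted p = 4.31e-06) and was 4.51 ± 1.89 in rt-PA+Acu. Tgfb1, whose latent form binds αv integrins, rose from 8.63 ± 1.1 CPM to 44.9 ± 3.44 (edgeR adjusted p = 1.32e-05). Icam5, the neuronal ICAM, fell from 181 ± 12.4 CPM to 43.1 ± 4.03 (edgeR adjusted p = 7.04e-06).

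RefSeq promoters of 250 bases before the start (GRCr8) were matched for 63 of the 81 members and searched on both strands for 4 motifs, without the bases after the start. The GC box (GGGCGG) was found in 33 members, 52.4%, where 33.5% of 27457 genes with a RefSeq promoter held it. These 27457 genes were not limited to those counted in the libraries. AP-1 (TGANTCA) was found in 3 (Itgax, Col6a1 and Lama3), 4.76% against 6.99% of all. The STAT motif (TTCNNNGAA) was in 7.94% of members against 8.19%, and the TATA box (TATAAA) in 9.52% against 14.1%. Among members higher in Model the GC box was in 4 of 9 promoters, among those lower in Model in 9 of 14, and among the members lower in rt-PA+Acu alone in 8 of 10. These are matches of letters in the window and were not tested as binding sites.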

How the data were processed

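The labels put 12 libraries in 4 groups of 3 rats, 1 library per rat. Poly(A) RNA was sequenced as paired reads of 150 bases. The deposited table gave raw counts, in whole numbers, by gene symbol and library. Per the labels and the study's methods, the authors aligned reads to mRatBN7.2 with STAR 2.7.10a and counted with Salmon 1.9.0; the submitters' notes also name featureCounts 2.0.1, with no role given. Whether strand and molecular identifiers were used in counting was not given in the sources used here.

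For the tests, R 4.3.3 and edgeR 4.0.16 were used (TMM, filterByExpr, quasi-likelihood test, each pair of groups on its own 6 libraries, Benjamini-Hochberg over all genes tested). Calls needed an adjusted p under 0.05 and a change over 2-fold. DESeq2 1.42.0 was an alternative. Other alternatives were RLE size factors, library size alone, no filter, a minimum of 10 counts per library, a joint fit of 12 libraries, a replicate block, an unadjusted p, no fold threshold and leaving out each library. P-values measure the spread between these rats. Scripts were tested on simulated data. Plots used Python 3.11.15 and matplotlib 3.10.9.

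The members and lists were chosen with earlier results of these data known, and 1 gene that met the rule is not reported here. Named were all called members, the vascular basement membrane genes and their receptors, leukocyte integrins and main fibrillar collagens, and for the other lists the 3 called genes with the smallest adjusted p in Model vs Sham. RefSeq genes (GRCr8) served for overlaps and promoters alone.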

Additional observations from a re-analysis of the deposited data

How the results depend on the processing

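With 3 libraries per group and 3 counts worth 0.208 to 0.262 CPM, members with few counts had wide errors, with SE of 0.75, 0.63 and 0.84 for Itga2, Itga11 and Itgb7 in rt-PA+Acu vs rt-PA. No member value given here changed direction under any alternative run, and 1041 of the recomputed values kept their side of the threshold, 85 lost a call and 6 gained one; the cause was not tested. In rt-PA vs Model, 3 members were higher with DESeq2 (82 genes in all, against 0) and 9 with an unadjusted p. With no fold change threshold, 11 members were higher in rt-PA+Acu vs rt-PA. In rt-PA+Acu vs Sham, 5 members were lower with no fold change threshold, and DESeq2 called 426 genes in all against 263 with edgeR. Leaving out 1 library gave 0 to 3 higher and 1 to 3 lower members in rt-PA+Acu vs Sham, 12 to 14 and 14 to 19 in Model vs Sham, and 4 to 7 and 18 to 29 from rt-PA to rt-PA+Acu; rt-PA vs Model stayed at 0. The labels gave no pairing by replicate number. Of 18 same-numbered pairs, 3 had a correlation of deviations over 0.1 (range -0.254 to 0.146). Deviations from a mean of 3 libraries cannot decide whether the numbers pair. With the replicate block, members called higher and lower were 13 and 15 in Model vs Sham, 7 and 23 from rt-PA to rt-PA+Acu, 1 and 2 in rt-PA+Acu vs Sham, and 0 and 0 for rt-PA vs Model.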
